A study of Mus musculus with 4 samples.

Results

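Imprinted genes outside the Dlk1-Dio3 locus were followed in mouse embryonic stem cells in which PRDM14 was overexpressed, Tet1 and Tet2 were knocked down, or both. The set was a list of 42 genes chosen by symbol, with the Dlk1-Dio3 domain left out, and every probe set that the platform annotation assigned to 1 of these genes alone was taken. These were 68 probe sets of 34 genes, out of 28898 probe sets of 17097 named genes on the array. H19, Peg10, Asb4, Kcnk9, Nnat and Zrsr1 were not analysed here, nor were Igf2r and Mest, whose probe sets were annotated to a second gene as well. By textbook classes in mouse, 15 of the 34 genes are expressed from the paternal allele and 17 from the maternal allele. Gnas and Grb10 were classed by isoform or tissue. Whether these classes hold in embryonic stem cells was not tested for any of the genes. The array measures both alleles together, so none of the values below says which allele was read.

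The study used J1 cells, a mouse embryonic stem cell line, grown without feeder cells in medium with serum and LIF, to examine the part of TET1 and TET2 in how PRDM14 regulates transcription. The 4 conditions were Tet1/Tet2 KD + PRDM14, Tet1/Tet2 KD, Scramble + PRDM14 and Scramble, and per the labels all came from iP14 cells given or not given Dox (doxycycline), so the cells without PRDM14 are of the same line. Knockdown was by short hairpin RNA against Tet1 and Tet2, with a scramble control. Each condition was 1 Affymetrix array of total RNA, so the spread between cultures of a condition is unknown. Whether the 4 cultures shared a clone is not given in the sources used here. Signals are log2 values, and a difference of 1 is 2-fold.

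Genomic imprinting silences a gene on the allele inherited from the mother or from the father, through DNA methylation laid down in the germ line at imprinting control regions. In early embryos and stem cells these marks are kept through rounds of demethylation by DNMT1 with UHRF1, by the zinc finger protein ZFP57, which binds a methylated hexamer and recruits TRIM28, and by DPPA3. TET enzymes oxidise 5-methylcytosine and take part in removing such marks in germ cells, and PRDM14 is a regulator of pluripotency and of the germ line.

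Promoters of 34 of the 42 listed genes were in the RefSeq promoter table (GRCm38.p6), which holds 250 bases before to 50 bases after each start. The observed over expected CpG ratio had a median of 0.63 over the 54 promoters of listed genes, against 0.38 over all 32851 promoters. The median GC content was 58.8%, against 52.7% over all promoters, and the motif shares below were not adjusted for it. Several starts of a gene were counted separately, and some of their windows overlap, as for Mest. The hexamer TGCCGC of ZFP57, on either strand, was present in 13 of the 54 (24.1%), against 11.6% of all promoters. It was present in 8 of 27 promoters of paternally expressed genes and in 4 of 21 of maternally expressed genes. The core motif of YY1, GCCATNTT on either strand, was present in 3 of the 54 (5.56%), against 6.05% of all promoters. Matches to the 2 motifs can share their GC letters, and no window of a listed gene held both motifs. A match is a description of the letters, and these windows are promoters and not the imprinting control regions as a whole. The 7 promoters below are those of the gene with the widest range over the arrays (Phlda2), of the noncoding RNA of its domain (Kcnq1ot1), and of the 5 genes with a match among those with the 12 widest ranges (Copg2, Calcr, Plagl1, Grb10 and Zdbf2). Matches to the ZFP57 hexamer are in capitals. Where a gene had several starts, the window with most matches is shown.
Phlda2, chr7:143502475-143502774, minus strand: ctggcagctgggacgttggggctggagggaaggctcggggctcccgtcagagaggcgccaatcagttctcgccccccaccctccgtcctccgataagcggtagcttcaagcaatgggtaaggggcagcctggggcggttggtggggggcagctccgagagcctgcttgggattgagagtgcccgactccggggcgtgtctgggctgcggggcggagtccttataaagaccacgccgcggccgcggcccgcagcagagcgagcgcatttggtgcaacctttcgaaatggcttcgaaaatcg
Kcnq1ot1, chr7:143296498-143296797, minus strand: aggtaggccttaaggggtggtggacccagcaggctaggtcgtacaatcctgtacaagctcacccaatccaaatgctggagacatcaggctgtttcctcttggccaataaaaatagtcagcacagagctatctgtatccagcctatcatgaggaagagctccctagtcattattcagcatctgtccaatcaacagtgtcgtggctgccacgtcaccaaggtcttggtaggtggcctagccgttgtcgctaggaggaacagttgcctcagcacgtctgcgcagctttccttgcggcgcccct
Copg2, chr6:30896745-30897044, minus strand: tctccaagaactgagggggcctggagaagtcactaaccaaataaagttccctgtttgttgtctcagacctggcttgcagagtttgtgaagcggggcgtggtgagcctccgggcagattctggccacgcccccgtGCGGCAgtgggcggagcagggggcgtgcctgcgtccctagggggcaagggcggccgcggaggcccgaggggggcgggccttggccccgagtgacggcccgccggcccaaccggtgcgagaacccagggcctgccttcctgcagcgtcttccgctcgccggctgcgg
Calcr, chr6:3763574-3763873, minus strand: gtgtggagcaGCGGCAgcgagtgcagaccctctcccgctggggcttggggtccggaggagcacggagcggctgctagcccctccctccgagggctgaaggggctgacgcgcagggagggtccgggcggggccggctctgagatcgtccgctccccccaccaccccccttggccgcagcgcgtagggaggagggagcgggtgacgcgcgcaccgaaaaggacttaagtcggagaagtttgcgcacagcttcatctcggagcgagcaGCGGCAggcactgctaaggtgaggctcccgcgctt
Plagl1, chr10:13090582-13090881, plus strand: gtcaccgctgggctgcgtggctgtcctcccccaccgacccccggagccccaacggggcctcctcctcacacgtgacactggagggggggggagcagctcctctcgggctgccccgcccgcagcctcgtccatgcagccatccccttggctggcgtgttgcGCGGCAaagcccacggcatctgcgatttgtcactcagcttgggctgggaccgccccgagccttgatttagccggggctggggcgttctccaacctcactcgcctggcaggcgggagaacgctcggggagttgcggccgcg
Grb10, chr11:12037371-12037670, minus strand: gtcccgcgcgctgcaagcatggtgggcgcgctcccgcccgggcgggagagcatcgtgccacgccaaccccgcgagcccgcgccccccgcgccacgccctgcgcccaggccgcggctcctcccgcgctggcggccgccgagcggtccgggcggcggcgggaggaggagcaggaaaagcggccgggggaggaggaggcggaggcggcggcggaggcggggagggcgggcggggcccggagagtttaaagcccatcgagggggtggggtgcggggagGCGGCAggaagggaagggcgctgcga
Zdbf2, chr1:63200108-63200407, plus strand: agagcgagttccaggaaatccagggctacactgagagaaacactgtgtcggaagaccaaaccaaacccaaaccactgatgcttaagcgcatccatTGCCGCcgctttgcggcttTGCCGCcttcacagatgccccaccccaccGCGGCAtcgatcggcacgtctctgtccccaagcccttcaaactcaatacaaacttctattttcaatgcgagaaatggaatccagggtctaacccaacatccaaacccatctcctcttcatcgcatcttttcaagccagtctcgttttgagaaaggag
The Phlda2 window held 26 CpG sites and no match on either strand, and the Kcnq1ot1 window held 9 CpG sites and no match. The Zdbf2 window held 15 CpG sites and 3 matches, Calcr 29 CpG sites and 2 matches, Copg2 25 CpG sites and 1 match, Plagl1 26 CpG sites and 1 match, and Grb10 45 CpG sites and 1 match.

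The arrays had nearly equal distributions, with medians of named probe sets between 5.39 and 5.40. A gene was counted in a comparison when the higher of its arrays reached 5.40, the median of all named values, which is a filter and not a measured background. By this filter 10519 of 17097 genes and 27 of the 34 imprinted genes were measured on at least 1 array. The Scramble array stood furthest from the rest, with 49 genes at least 2-fold beyond all 3 other arrays, against 7 to 27 genes on the others. No imprinted gene was 2-fold beyond the other 3 arrays on any array. Over the imprinted genes it was the Tet1/Tet2 KD + PRDM14 array that stood furthest from the mean of the other 3. Its root mean square difference was 0.34, against 0.17 to 0.27 on the others. Over all genes measured it was 0.20 on that array, and 0.20, 0.26 and 0.28 on the Tet1/Tet2 KD, Scramble + PRDM14 and Scramble arrays. This measure gives most weight to the genes with the largest differences. Calcr, which reached the filter on that array only, is among the imprinted genes counted. Of the targets, Tet2 read 8.15 and 7.50 on the knockdown arrays with and without PRDM14, against 9.33 and 8.46 on the scramble arrays. Tet1 was not analysed here, and Prdm14 read 4.35 to 4.83, under the filter on all 4 arrays, so the PRDM14 labels were not checked by it. Every PRDM14 difference given here takes its direction from those labels. All 7 embryonic stem cell markers on the array reached the filter on every array, and none of 8 fibroblast markers did on any.

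Among the imprinted genes 1 differed 2-fold between any of the 4 conditions. The range from the lowest to the highest array reached 2-fold in 1 of 27 measured genes, Phlda2, and in 3.89% of all genes measured. The median range was 0.28 over the imprinted genes and 0.26 over all 10519 genes. It was 0.22 over the 12 paternally expressed genes, from 0.01 to 0.89, and 0.31 over the 14 maternally expressed genes, from 0.08 to 1.33. The range was under 0.25 in 11 of the 27 (40.7%), against 48.9% of all genes.

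**Figure D1:**
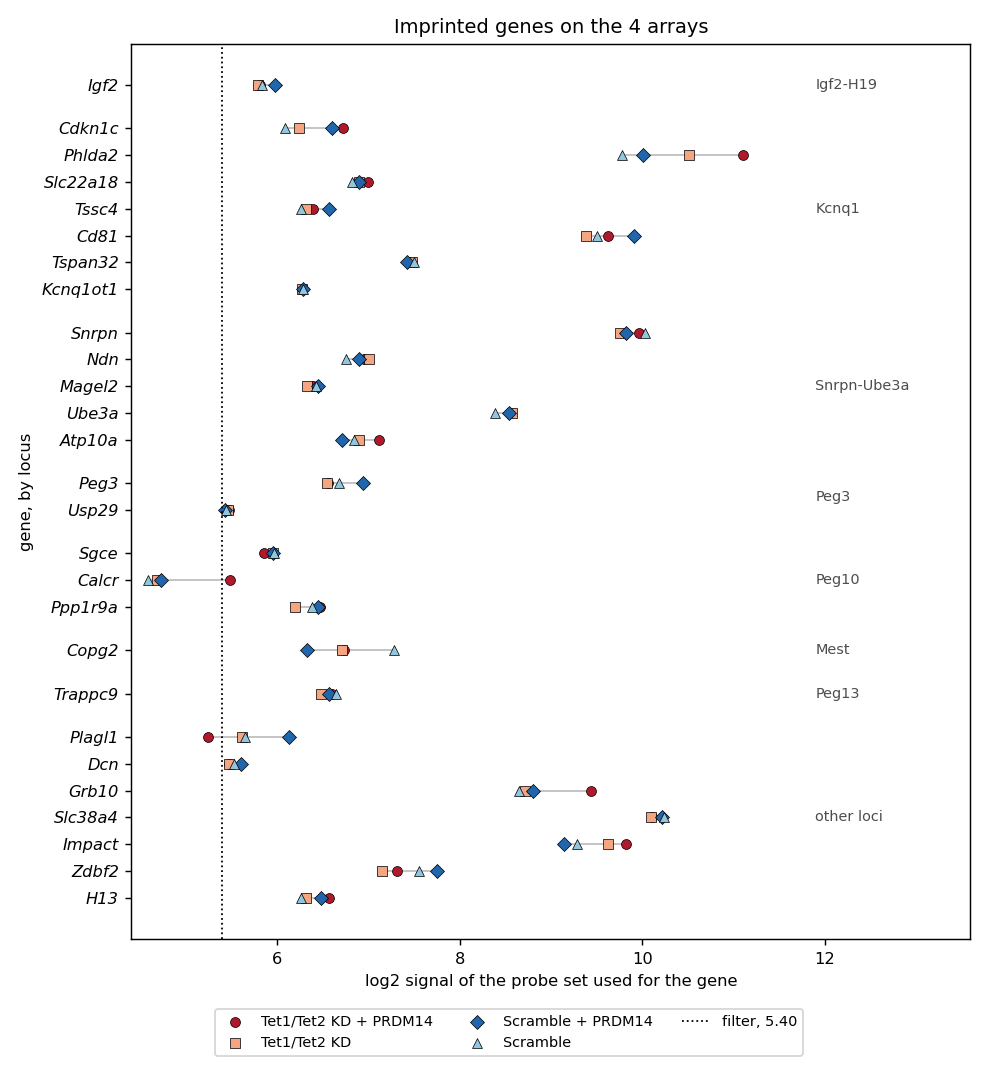
Log2 signal (horizontal axis) of the 27 imprinted genes that reached the filter on at least 1 array, grouped by locus, with a symbol for each of the 4 arrays and a line from the lowest to the highest. Kcnq1ot1 symbols coincide within 0.01, while those of Phlda2 run from 9.78 to 11.10. Levels of different genes come from different probe sets and are not comparable.

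**Figure D2:**
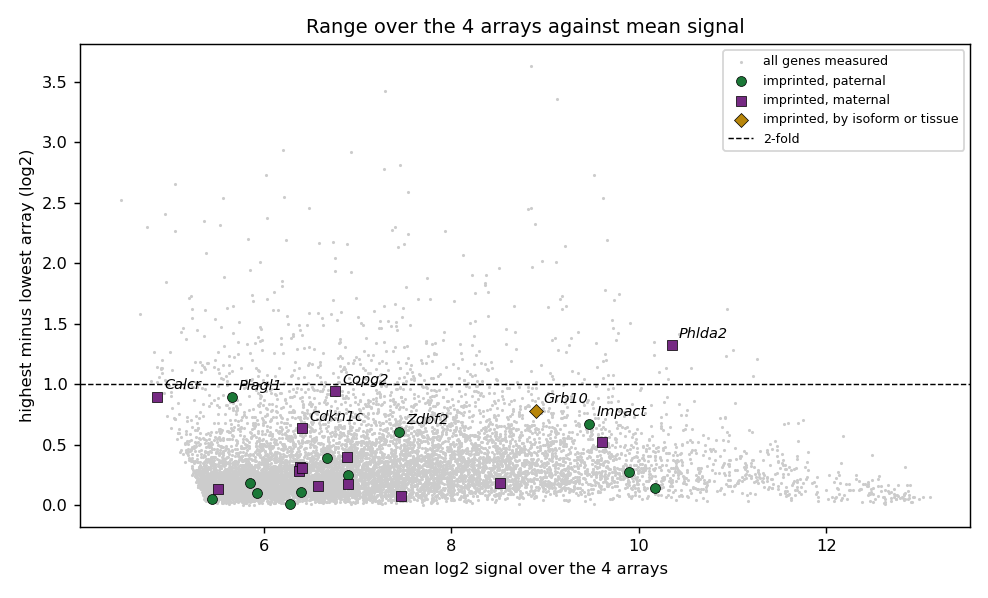
Range over the 4 arrays (log2, vertical axis) against mean log2 signal for the 27 imprinted genes, coloured by the allele they are expressed from, over all 10519 genes measured in grey. Only Phlda2 lies above the dashed 2-fold line among the imprinted genes, where 409 genes lie in all.

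The Kcnq1 domain on distal chromosome 7 held the widest difference. Phlda2, a pleckstrin homology protein that restrains growth of the placenta and is expressed from the maternal allele, read 11.10 on the knockdown array with PRDM14 and 10.51 on the knockdown array, against 10.01 on the scramble array with PRDM14 and 9.78 on the scramble array. Both knockdown readings lay above both scramble readings, and within each pair the array with PRDM14 read higher. Its difference between knockdown and scramble was 1.09 with PRDM14, or 2.13-fold, which passed the 2-fold rule. It rests on the Tet1/Tet2 KD + PRDM14 and Scramble + PRDM14 arrays and does not use the Scramble array. Without PRDM14 it was 0.74, under 2-fold. Phlda2 had 1 probe set, so no second reading of it could be given.

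The other measured genes of that domain were under 2-fold in every comparison. Cdkn1c, an inhibitor of cyclin-dependent kinases, read 6.72 and 6.23 on the knockdown arrays with and without PRDM14, and 6.60 and 6.08 on the scramble arrays with and without PRDM14. Its readings sorted by PRDM14 and not by knockdown, with differences of 0.48 and 0.52 for PRDM14 in knockdown and scramble cells. Cd81, a tetraspanin of the cell surface, read 9.62 and 9.38 on the knockdown arrays with and without PRDM14, against 9.91 and 9.50 on the scramble arrays. Tssc4, which takes part in spliceosome assembly, read 6.39 and 6.31 on the knockdown arrays and 6.57 and 6.26 on the scramble arrays in the same order. Both had their highest reading on the scramble array with PRDM14.

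Slc22a18, an organic cation transporter-like protein, and the tetraspanin Tspan32 had ranges of 0.18 and 0.08. Kcnq1ot1, the paternally expressed long noncoding RNA that silences neighbours in cis, read between 6.27 and 6.28 on all 4 arrays, the narrowest range of the 27. Kcnq1ot1 had 6 probe sets, of which 2 reached the filter. The second of these differed by -0.14 with PRDM14 in knockdown cells, where the first gave 0.01. Ascl2, a transcription factor of trophoblast, and the oxysterol-binding protein Osbpl5 stayed under the filter. Whether any of these probe sets responds fully to its transcript was not tested.

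In the Snrpn-Ube3a region, which in humans is the Prader-Willi and Angelman region, 5 of 7 genes reached the filter. Snrpn, a core protein of spliceosomal particles, read 9.96 and 9.76 on the knockdown arrays with and without PRDM14, and 9.82 and 10.03 on the scramble arrays. Its PRDM14 difference was 0.21 in knockdown and -0.21 in scramble cells, and its other 2 probe sets gave 0.15 and 0.26 in knockdown and -0.16 and -0.19 in scramble cells. All 3 probe sets ran in opposite directions in the 2 backgrounds, by at most 0.26. They read the same RNA samples, so their agreement says nothing of the spread between cultures. The probe set with 0.26 read 5.24 on the knockdown array, under the filter. Another is of the _x_at type, which may also bind other transcripts. Atp10a, a phospholipid flippase, read 7.11 and 6.90 on the knockdown arrays, against 6.71 and 6.84 on the scramble arrays. Its readings on the knockdown arrays lay above both scramble readings, by up to 0.40, in a probe set of the _x_at type, which may also bind other transcripts. The second Atp10a probe set at the filter read 5.45 and 5.18 on the knockdown arrays, against 5.13 and 5.20 on the scramble arrays, so the knockdown reading without PRDM14 was not above the Scramble reading there.

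Ndn (necdin) and Magel2, proteins of the MAGE family, had ranges of 0.25 and 0.11, and the ubiquitin ligase Ube3a 0.18. The 3 Ube3a probe sets had their lowest reading on the Scramble array, by 0.16 to 0.27 below the scramble array with PRDM14. Mkrn3, a makorin-type zinc finger protein, and Peg12 were under the filter on all arrays.

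Peg3, a zinc finger protein expressed from the paternal allele, read 6.55 and 6.54 on the knockdown arrays with and without PRDM14, against 6.94 and 6.67 on the scramble arrays. Both knockdown readings were below both scramble readings, with differences of -0.38 with PRDM14 and -0.13 without. Its second probe set gave -0.53 and -0.60 for the same differences. That probe set read 5.27 and 5.39 on the knockdown arrays, under the filter, against 5.79 and 5.99 on the scramble arrays. It reached the filter only on the scramble arrays, where it was high, so its direction is no independent support. The sizes of the 2 probe sets without PRDM14 differed by more than the pooled SD of 0.21 between probe sets of a gene. For PRDM14 in scramble cells they gave 0.26 and -0.20. Usp29, a deubiquitinase that shares a divergent promoter region with Peg3, had a range of 0.05, and the zinc finger gene Zim1 was under the filter.

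In the Peg10 region Calcr, the calcitonin receptor, read 5.48 on the knockdown array with PRDM14, against 4.68, 4.72 and 4.58 on the knockdown, scramble with PRDM14 and scramble arrays. Only the first of these reached the filter, and after low readings were raised to the filter the differences of 0.80 (PRDM14 in knockdown cells) and 0.75 (knockdown with PRDM14) were both 0.081. Sgce (epsilon-sarcoglycan) and Ppp1r9a, an actin-binding protein of neurons, had ranges of 0.11 and 0.28.

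Copg2, a coatomer subunit that lies beside Mest, had the second widest range. It read 6.73 and 6.71 on the knockdown arrays with and without PRDM14, and 6.33 and 7.28 on the scramble arrays. The 2 knockdown readings were nearly equal, and the scramble readings were the lowest and the highest of the 4. The difference of -0.95 for PRDM14 in scramble cells, and that of -0.57 for knockdown without PRDM14, both rest on the Scramble array. Trappc9, a subunit of a vesicle tethering complex in the Peg13 domain, had a range of 0.16.

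Among genes in domains of their own, Grb10, an adaptor that dampens insulin and growth factor receptor signalling, read 9.43 and 8.71 on the knockdown arrays with and without PRDM14, against 8.81 and 8.65 on the scramble arrays. Its reading on the knockdown array with PRDM14 stood 0.72 above the knockdown array and 0.63 above the scramble array with PRDM14, both under 2-fold. Its other 2 probe sets were under the filter on all arrays, and the mean of all 3 gave 0.38 and 0.27. Impact, a regulator of the amino acid starvation response, read 9.82 and 9.63 on the knockdown arrays, against 9.14 and 9.29 on the scramble arrays. Zdbf2, a zinc finger gene expressed from the paternal allele, read 7.32 and 7.14 on the knockdown arrays, against 7.75 and 7.55 on the scramble arrays. In both genes the knockdown readings lay apart from the scramble readings. The differences with and without PRDM14 were 0.68 and 0.34 for Impact and -0.44 and -0.41 for Zdbf2.

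Plagl1, a zinc finger transcription factor that restrains proliferation, read 5.24 and 5.62 on the knockdown arrays with and without PRDM14, against 6.13 and 5.64 on the scramble arrays. The difference of -0.89 with PRDM14 was just under 2-fold and came from a probe set of the same _x_at type. The reading of 5.24 was under the filter. With low readings raised to the filter the difference was -0.74. The second Plagl1 probe set, under the filter at 4.26 to 4.33, gave -0.04. Slc38a4, an amino acid transporter, read 10.11 and 10.10 on the knockdown arrays and 10.22 and 10.24 on the scramble arrays. Its second probe set differed by 0.54 with PRDM14 in scramble cells, where the first gave -0.02, so the 2 probe sets did not agree.

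Igf2, the fetal growth factor, read 5.79 to 5.98, with its second probe set under the filter. H13, a signal peptide peptidase, read 6.26 to 6.57, and decorin (Dcn), a matrix proteoglycan, 5.47 to 5.60. The 7 genes under the filter throughout were Ascl2, Osbpl5, Mkrn3, Peg12, Zim1, Nap1l5 and Gnas, with readings from 3.29 to 5.27 and ranges of at most 0.28. For Gnas, which encodes the stimulatory G protein subunit and several other transcripts, the single probe set analysed does not stand for all isoforms.

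**Figure D3:**
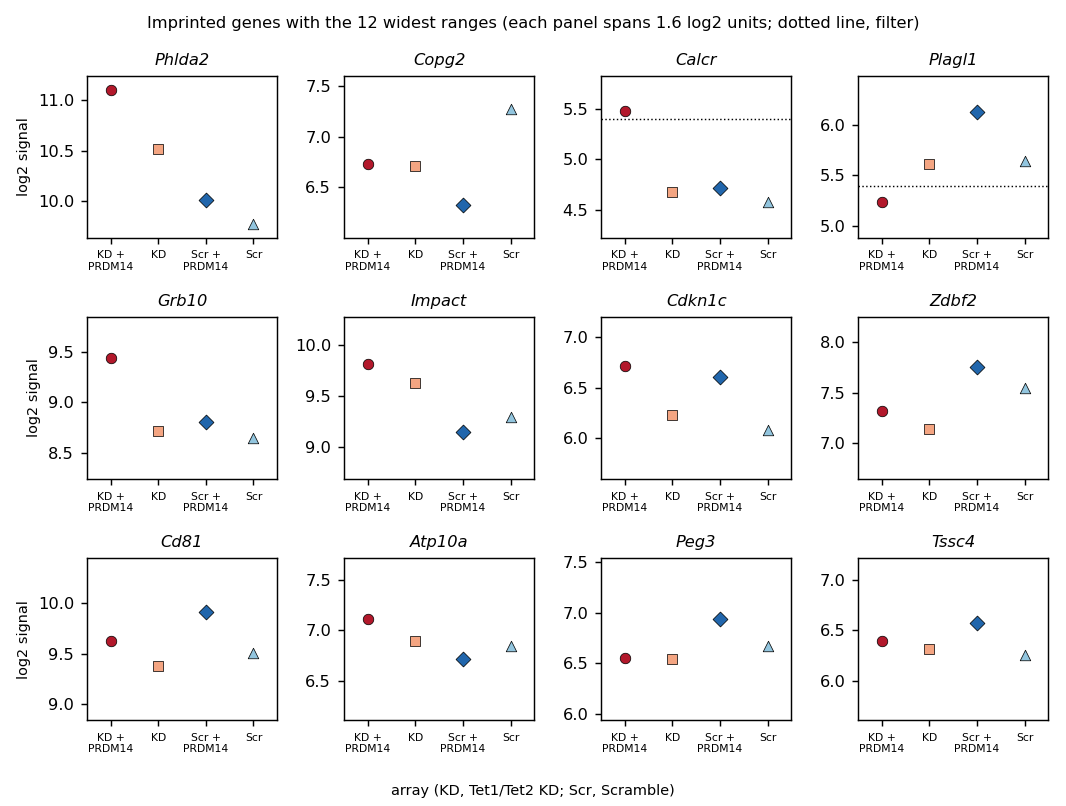
Log2 signal (vertical axis, each panel spanning the same number of log2 units) on the 4 arrays for the imprinted genes with the 12 widest ranges, with a dotted line at the filter. The knockdown symbols lie above the scramble symbols for Phlda2, Impact and Atp10a and below them for Zdbf2, Peg3 and Plagl1, and the symbols with PRDM14 lie above those without for Cdkn1c, Cd81, Tssc4, Calcr and Grb10.

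The first comparison asked how PRDM14 induction read in knockdown cells, with the Tet1/Tet2 KD + PRDM14 array set against the Tet1/Tet2 KD array. None of the 27 genes differed 2-fold, against 0.63% of the 10311 genes counted, and 3 differed at least 1.5-fold, against 2.81%. The median difference was 0.08, against -0.00095 over all genes. Of the 27 differences 22 were above 0, against 49.5% of all genes. Among them Dcn, Slc38a4, Kcnq1ot1, Peg3, Usp29, Igf2 and Copg2 were at most 0.025. The pooled SD between probe sets of a gene was 0.15 in this comparison. Second probe sets at the filter of Slc38a4, Kcnq1ot1 and Trappc9 gave -0.098, -0.14 and -0.076. All probe sets pointed the same way in 4 of 9 genes with several at the filter. With the filter at the upper quartile, which left 12 imprinted genes, the median was 0.18. The largest differences were Calcr (0.80, but 0.081 with low readings raised to the filter), Grb10 (0.72) and Phlda2 (0.59). The lowest was Plagl1 (-0.38, but -0.22 with low readings raised to the filter). The 14 maternally expressed genes had a median of 0.16, with 12 above 0, and the 12 paternally expressed genes 0.013, with 9 above 0. The knockdown array had the lowest reading of 11 of the 27 genes, against 20.7% of all genes, and the knockdown array with PRDM14 the highest of 11, against 22.0% of all genes.

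In scramble cells, with the Scramble + PRDM14 array set against the Scramble array, none of 26 genes differed 2-fold, against 2.09% of 10366 genes. Copg2 alone differed at least 1.5-fold, against 8.19% of all genes. The median was 0.08, against 0.0020 over all genes, and 0.15 over the 15 imprinted genes with a plain _at probe set, and 16 differences were above 0 and 9 below, against 50.4% of all genes above 0. Cdkn1c (0.52), Plagl1 (0.49) and Cd81 (0.40) had the highest and Copg2 (-0.95) the lowest difference. All values of this comparison use the Scramble array and cannot be given without it.

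Knockdown under PRDM14 set the Tet1/Tet2 KD + PRDM14 array against the Scramble + PRDM14 array. Phlda2 was the 1 gene of 27 past 2-fold, against 1.1% of 10322 genes, and 5 were past 1.5-fold, against 4.34%. The median was 0.02 (-0.05 with means over probe sets), against 0.0029 over all genes, with 17 differences above and 10 below 0, against 50.8% of all genes above 0. Calcr (0.75), Impact (0.68) and Grb10 (0.63) followed Phlda2, and Plagl1 (-0.89), Zdbf2 (-0.44) and Peg3 (-0.38) were lowest. With low readings raised to the filter the Calcr difference was 0.081 and the Plagl1 difference -0.74. The maternally expressed genes had a median of 0.06, with 11 of 14 above 0, and the paternally expressed genes -0.08, with 5 of 12 above 0.

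Without PRDM14, where the Tet1/Tet2 KD array was set against the Scramble array, none of 26 genes differed 2-fold, against 1.06% of 10351 genes, and Phlda2 alone differed at least 1.5-fold, against 5.09%. The median was -0.02 (0.06 with the filter at the upper quartile), against 0.0079 over all genes, with 11 differences above and 15 below 0, against 51.6% of all genes above 0. Phlda2 (0.74) and Impact (0.34) were highest, and Copg2 (-0.57) and Zdbf2 (-0.41) lowest. This comparison and the previous one share no array, whereas each of them shares an array with each PRDM14 comparison.

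**Figure D4:**
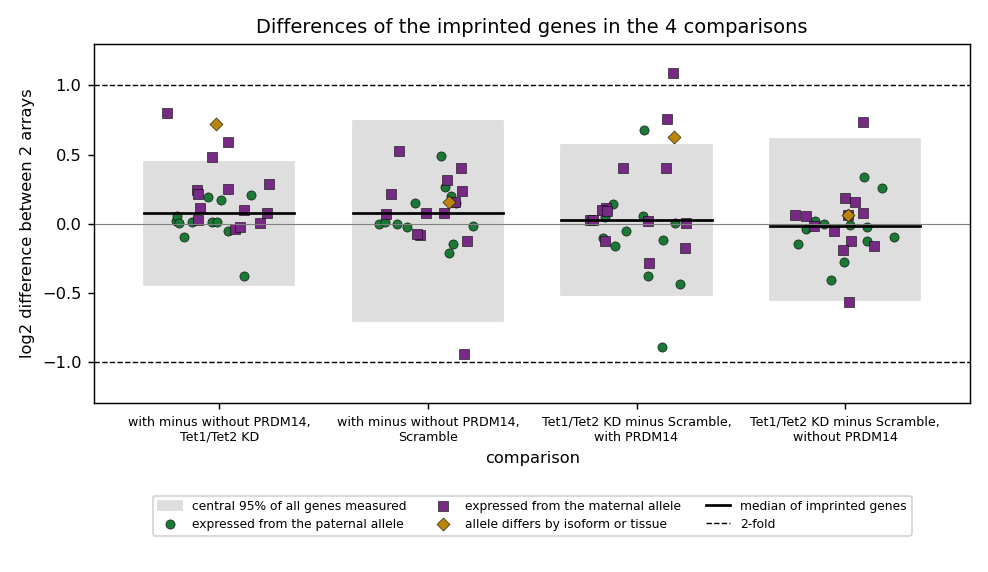
Log2 difference between the 2 arrays compared (vertical axis) for each imprinted gene in the 4 comparisons, coloured by the allele of expression, with a grey band for the central 95% of all genes measured, a black bar at the median of the imprinted genes and dashed lines at 2-fold. Phlda2, at 1.09 under knockdown with PRDM14, is the point beyond 2-fold, and the medians lie between -0.02 and 0.08.

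Both readings with the factor lay beyond both without it in 8 of 27 genes for PRDM14, against 37% of all genes, and in 15 of 27 for knockdown, against 35.1% of all genes. For knockdown, 7 genes read higher (Phlda2, Slc22a18, Ndn, Ube3a, Atp10a, Usp29 and Impact) and 8 lower (Igf2, Magel2, Peg3, Sgce, Plagl1, Dcn, Slc38a4 and Zdbf2). These lists use the brightest probe set of each gene. Of the 5 knockdown genes with a further probe set at the filter (Ube3a, Atp10a, Peg3, Sgce and Slc38a4), Peg3 alone showed the pattern in it too. That Peg3 probe set was under the filter on both knockdown arrays, so it adds no independent support. Without PRDM14 the second probe sets of Slc38a4 and Sgce differed by 0.38 and 0.04, where the first gave -0.14 and -0.01. For PRDM14, Cdkn1c, Tssc4, Cd81, Calcr, Ppp1r9a, Grb10 and H13 read higher and Tspan32 lower. Calcr reached the filter on 1 array only, so its place here rests on readings under the filter. The second probe set of Ppp1r9a showed the pattern too. Most of these steps were small: over the knockdown genes named, Usp29 differed by 0.05 and 0.02 with and without PRDM14.

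An additive limma fit over all 4 arrays gave the average effect of each factor with 1 residual degree of freedom per gene, any dependence of one factor on the other counting as error. No gene of the 10519 passed an adjusted p of 0.05 for either factor, 0% of genes called. At an unadjusted p of 0.05, 3 of 27 imprinted genes passed for PRDM14, against 6.07% of all genes, and 3 for knockdown, against 5.74% of all genes. For PRDM14 these were Cdkn1c, at 0.50 (95% confidence interval 0.29 to 0.72), Phlda2, at 0.41 (0.0063 to 0.82), and H13, at 0.23 (0.021 to 0.45), each with a limma adjusted p of 0.78. For knockdown they were Phlda2, at 0.91 (0.51 to 1.32), Impact, at 0.51 (0.069 to 0.95), and Zdbf2, at -0.42 (-0.71 to -0.14), each with a limma adjusted p of 0.80. The intervals of Copg2 (-1.31 to 0.39 for PRDM14) and Plagl1 (-1.22 to 0.30 for knockdown) are wide and include 2-fold differences. That of Kcnq1ot1 for knockdown ran from -0.21 to 0.21.

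The dependence of the PRDM14 difference on the knockdown was the difference in knockdown cells minus that in scramble cells. None of 27 genes reached 2-fold, against 2.27% of all genes, and 3 reached 1.5-fold, against 9.1%. The median was 0.03 (-0.08 with means over probe sets), against -0.0041 over all genes, with 16 of 27 values above 0, against 49.1% of all genes. Copg2 (0.97), Calcr (0.65, at the filter on 1 array only) and Grb10 (0.57) had the highest values. Plagl1 (-0.87, at the filter on 3 arrays only) had the lowest. Each of these includes the Scramble array, and no error could be attached to them.

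Between probe sets of a gene the differences had a pooled SD of 0.15 to 0.22 in the 4 comparisons, over 3322 genes with several probe sets at the filter. This is a technical yardstick that covers neither cultures nor arrays. Of 9 imprinted genes with several such probe sets, all probe sets pointed the same way in 4 genes for each PRDM14 comparison, in 5 for knockdown with PRDM14 and in 6 for knockdown without it.

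A list of genes of imprint maintenance, which also holds Dnmt3a, Dnmt3b and Dnmt3l of de novo methylation, was read on the same arrays. Of 18 listed, 15 were measured, with a median range of 0.46, against 0.28 over the imprinted genes. This difference was not tested. The range reached 2-fold in 3 of the 15, Dppa3, Dnmt3b and Dnmt3l, so it does not describe maintenance genes alone. Dppa3 read 9.12 and 10.53 on the knockdown arrays with and without PRDM14, and 7.17 and 9.68 on the scramble arrays. Going by the sample titles, its PRDM14 differences were thus -1.41 in knockdown and -2.51 in scramble cells, both past 2-fold. Its differences with knockdown were 1.95 with PRDM14 and 0.86 without. The dependence of the PRDM14 difference on the knockdown was 1.09 for Dppa3 and 1.02 for Smchd1. Smchd1 differed with PRDM14 by 0.36 in knockdown and -0.66 in scramble cells. The de novo methyltransferase Dnmt3b read 10.61 and 8.83 on the knockdown arrays with and without PRDM14, and 10.21 and 8.89 on the scramble arrays, differences of 1.78 and 1.32. Uhrf1 differed by 0.45 and 0.90 and Dnmt3l by 0.72 and 0.95 with PRDM14 in knockdown and scramble cells, all under 2-fold. The direction of these differences for Dppa3, Dnmt3b, Uhrf1 and Dnmt3l follows the sample titles alone. Whether it reflects the action of PRDM14 was not tested, since Prdm14 stayed under the filter. Dnmt1 ranged over 0.20, Ctcf over 0.26 and Trim28 over 0.35. Zfp57 and Ctcfl were not analysed here, and Arid4a stayed under the filter. Whether the imprinted genes' values depend on these genes was not tested.

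In the Dlk1-Dio3 domain, left out of the set, 3 genes were measured. Rian, a maternally expressed noncoding RNA, read 7.90 and 6.40 on the knockdown arrays with and without PRDM14, and 8.64 and 7.23 on the scramble arrays. Its differences with PRDM14 were 1.51 and 1.41, against -0.38 to 0.80 in knockdown cells and -0.95 to 0.52 in scramble cells over the imprinted genes. Meg3, also a maternally expressed noncoding RNA, differed by 0.98 and 0.86 with PRDM14 in knockdown and scramble cells, under 2-fold and above the range of the imprinted genes in both. Mirg, the third measured, differed by 0.37 and 0.55, the first of them within that range. Mirg read 5.52 and 5.15 on the knockdown arrays with and without PRDM14, and 5.67 and 5.12 on the scramble arrays. It reached the filter only on the arrays with PRDM14, so its differences rest on readings under the filter. The difference between these genes and the imprinted genes outside the domain was not tested.

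Some of the imprinted genes are abundant in placenta, yolk sac, fibroblasts or brain, so markers of other cells were read on the same arrays. Of 6 trophectoderm markers 2 or 3 reached the filter, with a summed linear signal of 305 and 302 on the knockdown arrays with and without PRDM14, and 285 and 303 on the scramble arrays. Hand1 was the brightest of them on every array. Eomes read 5.59 and 5.52 on the knockdown arrays with and without PRDM14, against 5.36 and 5.23 on the scramble arrays, at the filter on the knockdown arrays only. Its differences with knockdown were 0.23 with PRDM14 and 0.29 without, where those of Phlda2 were 1.09 and 0.74. In the same order those of Hand1 were 0.05 and 0.04. Those of Tfap2a, at the filter on all 4 arrays, were 0.03 and -0.31, so the trophectoderm markers did not move together. Cdx2, Elf5 and Krt7 were under the filter on all 4. Of 8 primitive endoderm markers 2 or 3 reached it, with sums of 276 and 271 on the knockdown arrays and 281 and 265 on the scramble arrays, while Gata4, Sox17, Sox7, Foxa2 and Afp were under it on all 4. None of the 8 fibroblast markers reached it, with sums of 160 to 166. Of 7 neural markers 3 or 4 reached it, with sums of 441 and 450 on the knockdown arrays and 564 and 394 on the scramble arrays. Single neural markers did not move together: Pax6 differed with knockdown by -1.43 with PRDM14 and -0.89 without, and Tubb3 by -0.17 and 1.06. The part of these markers in the readings of the imprinted genes was not tested, and in bulk RNA a change in cell numbers and a change in RNA per cell cannot be told apart.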

How the data were processed

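Total RNA of 4 cultures was measured on Affymetrix arrays, 1 per condition, and groups were taken from the sample titles. The deposited values were log2 signals per probe set, already brought to a common distribution by the authors. The log base was inferred from their range, 2.82 to 13.15 over named probe sets. The submitters' processing notes name Affymetrix Expression Console. Its version is not given in the sources used here, nor are the summary method and background correction. Compression of low signals therefore cannot be assessed. Scanner files were not used here.

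Of 45141 probe sets, 104 were controls, 28898 named 1 gene, 551 several and 15588 none. Entrez identifiers of 28689 were found in the RefSeq table, and 0 symbols changed. The probe set with the highest mean stood for a gene. Calls were a size rule (2-fold, higher array at the filter) and not a test. Average effects were fitted in limma 3.58.1 (R 4.3.3; lmFit, eBayes with trend, Benjamini-Hochberg over 10519 genes). The procedure was tested on simulated data with equal noise in all genes and equal effects in both backgrounds. That test does not show which effects the fit could find in the real arrays. The number of arrays limits the precision. Members and lists were chosen with earlier results of these data known. Genes given on all 4 arrays were those past 2-fold, past the adjusted p, with the 12 widest ranges, or with the 3 highest means; probe set disagreements were noted after seeing values.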

Additional observations from a re-analysis of the deposited data

How the results depend on the processing

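With 1 array per condition no array could be left out of a comparison. No paired analysis was possible because the labels give no replicate numbers to block on, other than the additive limma fit, which takes each factor within the levels of the other. At a 1.5-fold threshold 3 imprinted genes were counted for PRDM14 in knockdown cells (Calcr, Grb10 and Phlda2), 1 for PRDM14 in scramble cells (Copg2), 5 for knockdown with PRDM14, 1 for knockdown without PRDM14 (Phlda2) and 3 for the dependence on the knockdown (Calcr, Copg2 and Plagl1). At 3-fold the count for knockdown with PRDM14 was 0. The 2-fold counts were the same with no filter, a filter at the upper quartile (6.82), raised values, means over probe sets, plain _at probe sets, median centring and repeated quantile normalization, where Phlda2 was the gene counted. Phlda2 has a single, bright _at probe set, so the value of its call could change only under centring (1.08) and repeated normalization (1.10). The median for PRDM14 in knockdown cells was 0.18 with the filter at the upper quartile, and that in scramble cells 0.15 with plain _at probe sets. For knockdown with PRDM14 it was 0.013 with no filter, 0.054 with the upper quartile, -0.050 with means over probe sets, -0.022 with plain _at probe sets and 0.014 after repeated normalization. For knockdown without PRDM14 it was 0.058 with the upper quartile, 0.024 with means and -0.0055 with centring, and for the dependence -0.081 with means, -0.057 with plain _at probe sets and 0.015 with centring. The sign of these 3 medians thus depends on the setting, and the upper quartile filter and the restriction to _at probe sets leave fewer genes. The limma fit called 0 genes under every alternative tried, including eBayes without the trend. Many of the 332 other single-gene values could not move. A change of filter leaves readings above it as they are. Means over probe sets and plain _at probe sets leave a gene with a single _at probe set unchanged. Of the 332, 13 moved by more than the SD between probe sets of a gene, for Calcr, Plagl1, Grb10, Peg3 and Slc38a4. For Slc38a4 knockdown without PRDM14 gave 0.12 with means, against -0.14. The only value past 2-fold was that of Phlda2, so a change of sign was looked for in that value alone. Background correction and array batch could not be varied from these values.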

Other observations

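Among 26 further imprinted genes and neighbours of imprinted genes, 21 were on the array and 10 were measured, with a median range of 0.45. Gab1, an adaptor of receptor tyrosine kinases, read 9.74 and 9.17 on the knockdown arrays with and without PRDM14, and 10.25 and 9.73 on the scramble arrays. Its readings differed by 0.57 and 0.52 with PRDM14 and by -0.51 and -0.56 with knockdown, so no single difference reached 2-fold although the range was 1.08. Sfmbt2, a Polycomb-related gene imprinted in extraembryonic tissue, read 7.10 and 7.47 on the knockdown arrays with and without PRDM14, against 6.25 and 6.54 on the scramble arrays. Both knockdown readings lay above both scramble readings, by 0.85 and 0.93. Mcts2, a retrogene within H13, read 7.39 and 7.17 on the knockdown arrays and 8.10 and 7.13 on the scramble arrays, with the highest reading on the scramble array with PRDM14, where the knockdown difference was -0.71. H13 itself had a range of 0.31.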
